A study of Mus musculus with 16 samples.

Results

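The tumour-infiltrating fraction of subcutaneous hepatomas was compared with untreated mouse blood on 8 Agilent arrays of 2 colours, those titled TIC, out of 16 arrays in the series. They were chosen by title alone, and no measured value entered the choice. Each of the 8 arrays carried RNA of the fraction in Cy5 and RNA of untreated blood in Cy3, so a positive log2 ratio means more signal from the fraction. The fraction came from mice given 10000000 Hepa1-6 cells under the skin and sampled on day 10; Hepa1-6 is a mouse hepatoma line. Tumours were mashed, and a density gradient was used to enrich inflammatory cells. The strain field reads C57Bl/6 for both channels while the treatment text also calls the tumour-bearing mice athymic, and both channels are labelled female. The fraction's RNA was prepared with a MicroRNA isolation kit and the blood RNA with a RiboPure-Blood kit, so tissue and kit cannot be told apart. The other 8 arrays carried blood of tumour-bearing mice in Cy5 against the same labelled reference, and serve below only as a comparison.

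Tumours draw leukocytes from the blood through chemokines, small secreted proteins that bind receptors on the moving cells. Monocytes that enter a tumour mature into macrophages, which take up debris, digest it in lysosomes and present peptides on MHC class II molecules. Whole blood, by contrast, holds red cell precursors that carry globin and haem synthesis transcripts, platelets with megakaryocyte transcripts, and circulating B cells, T cells and neutrophils. RNA of the tumour cells themselves can enter a gradient fraction, and hepatoma lines keep transcripts of fetal liver such as Afp, which encodes alpha-fetoprotein.

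In Cy5, 51.1% to 65.8% of probes were well above background on the 8 arrays, and in Cy3 46.6% to 51.1%. Log2 ratios of 26508 tested probes correlated at 0.928 to 0.981 between these arrays, across probes that are not independent replicates. The arrays lay on 2 slides of 4 arrays each, and neither slide held a blood array. TIC 893 stood apart in the spike-in controls, RNAs added in known amounts, whose median log2 ratio was 0.11 there against 1.08 to 1.92 on the other arrays. On TIC 897 and TIC 898 a background fit over all spots was set by 1 and 12 spots with a local background far above the spot. Such spots were left out of all fits, a choice made after the values had been seen; with them 1146 genes rose and 1246 fell. The reference stands for 1 control sample without dye swaps, so variation among untreated mice is not in the test, and any dye bias of a probe stays in the ratio. The labels do not say whether the 8 fractions came from separate mice, and p-values measure the spread between these samples. Fewer cells of a type and less RNA per cell cannot be told apart in such bulk RNA.

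The label of the fraction was set against marker genes. Ptprc, which encodes the leukocyte surface protein CD45, had Cy5 signals of 12832 to 41387 units after background subtraction, with a median of 21109. The macrophage markers Csf1r, Adgre1, C1qa, C1qc and Mrc1 were well above background in Cy5 on 8 of 8 arrays. Csf1r, the receptor for macrophage colony stimulating factor, lay at 1863 to 9820 units, and C1qc, a complement chain made by macrophages, at 10783 to 57139 units. Transcripts of the tumour were also bright. Afp had Cy5 signals of 67254, 235755 and 342713 units at the lowest, median and highest array, and those of Foxa2, a transcription factor of liver, were 4483, 18131 and 25967. The label of an enriched inflammatory fraction therefore stood beside leukocyte and hepatoma transcripts in every sample, and how many cells of each kind it held was not tested. Alas2, the erythroid enzyme of haem synthesis, was at 56749 to 148954 units in the same channel. T cell receptor chains were present, with Cd3g at 2987 to 13165 units and Cd3e at 95.5 to 273.5 units, both well above background in Cy5 on 8 of 8 arrays. Foxn1, the gene that is mutated in nude mice, was not tested because its probe was dim, and Cd8a had no named probe.

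Log2 ratios were formed after background correction and loess, which sets the middle of each array to 0 along the whole range of intensity. A gene was called at a limma adjusted p under 0.05 if it also differed by 2-fold or more. Of 12311 genes tested, 1313 (10.7%) rose and 1529 (12.4%) fell in the fraction, 2842 (23.1%) in all. The adjusted p alone was met by 10053 genes (81.7%), so that the fold decided most calls. On the first slide alone 1318 genes rose and 1441 fell, and on the second 1363 rose and 1640 fell.

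Centring decided how many genes counted as higher. Without loess, with each array centred on the median of all its probes (median centring), the median log2 ratio of the tested genes was 1.48, against 0.05 with loess, and 7658 genes rose (62.2%) while 508 fell (4.13%). Centring on the spike-in controls put the median at 0.73, with 5230 genes higher (42.5%) and 1576 lower (12.8%). Ratios as the authors' program had deposited them had a median of 0.17, with 3178 genes higher (25.8%) and 2586 lower (21%). The share of calls that were rises was 46.2% with loess, 93.8% with median centring, 76.8% with spike-in centring and 55.1% with the deposited ratios. Spike-in centring without TIC 893 gave 4852 higher and 2063 lower genes. The program's own spike-in intercept, subtracted from the deposited ratios, gave 9460 higher (76.8%) and 869 lower genes (7.06%) and a median of 2.04. This setting was chosen after the data were seen.

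Of the 1529 falls, 497 (32.5%; 4.04% of all genes tested) were called lower under all 4 centrings, loess included, and 187 (12.2%) became called rises with median centring. The shift between median centring and loess depended on brightness, from −0.22 in the dimmest of 10 equal bins of genes to 2.33 in the brightest. Median and spike-in centring raised ratios in each of the 7 bins that held rises, so that 0 rises were lost to them, which says nothing of how stable the rises are. The deposited ratios, whose median shift from loess was at most 0.33 in a bin, kept 1307 of 1313 rises (10.6% of all genes tested). They were spread more widely and gave 5764 calls against 2842 with loess, so this too says little of how stable the rises are. Beyond the loess calls, 603 genes were higher and 11 lower under the other 3 centrings together.

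**Figure D1:**
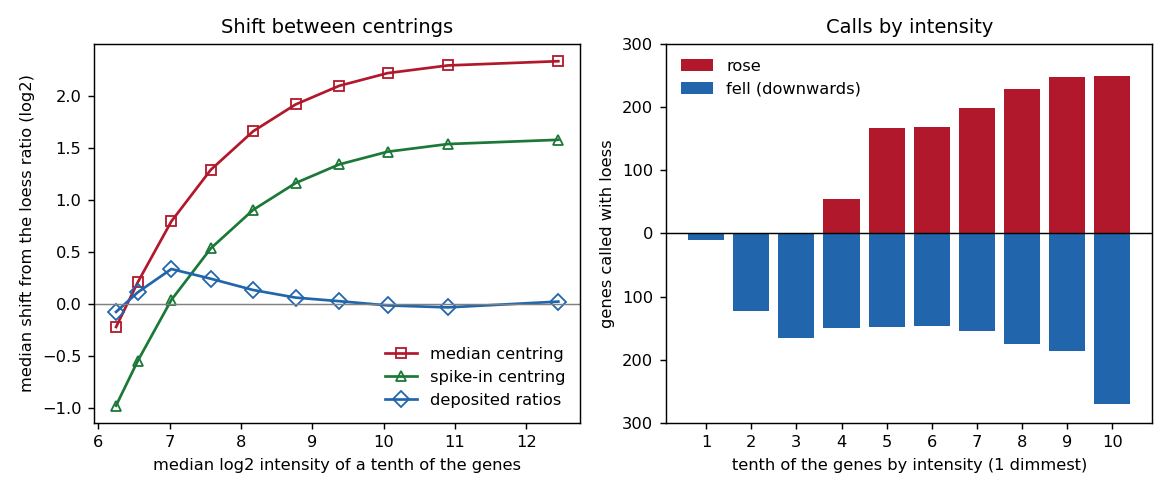
The left panel plots, for 10 equal bins of tested genes ordered by mean log2 intensity, the median difference between the log2 ratio under median centring, spike-in centring or the deposited ratios and that under loess. The shift of median centring climbs from −0.22 to 2.33 while the median shift of the deposited ratios stays within 0.33. The right panel shows the loess calls per bin, with 0 rises in the 3 dimmest bins.

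The 12 largest rises among genes bright in both channels on all arrays and called alike under the 4 centrings ranged from 3.65 to 4.29 on the log2 scale. Tspan12, a tetraspanin, had the highest ratio of them. Its Cy5 signal was 8369, 22373 and 47950 units at the lowest, median and highest array, against 77, 105.8 and 119 units in Cy3, and its log2 ratio rose by 4.29 ± 0.05 (SE, n = 8; limma adjusted p = 8.17e-15). Every Cy5 value lay far above every Cy3 value, and the 8 ratios spanned only 4.02 to 4.47. Over all genes tested the median signal was 789 units in Cy5 and 106 in Cy3. Here and below, a gap in units before normalisation is therefore not in itself a rise. Foxa2 rose by 4.16 ± 0.07, between 3.76 and 4.43 on single arrays. C4bp, which encodes a plasma protein that restrains complement, rose by 4.05 ± 0.07. Palmd, which encodes palmdelphin, rose by 4.19 ± 0.07, Tcim by 3.99 ± 0.09 and Psrc1, a spindle protein, by 3.81 ± 0.07.

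Genes of inflammation were among the other large rises. Cxcl10, an interferon-induced chemokine that attracts activated T cells and NK cells, lay at 7959, 17154 and 38770 units in Cy5 and at 42.5, 84.5 and 172 units in Cy3. Its log2 ratio ran from 3.66 to 4.86 and rose by 4.24 ± 0.13 on average (SE, n = 8; limma adjusted p = 7.14e-12). The groups of values did not overlap. Spp1, which encodes osteopontin, a secreted matrix protein of macrophages and tumour cells, rose by 4.05 ± 0.12, and Ccl4, a chemokine that attracts macrophages and T cells, by 3.91 ± 0.11. Iigp1, an interferon-induced GTPase, rose by 3.87 ± 0.07. Bnip3, a mitophagy receptor induced by low oxygen, rose by 3.65 ± 0.13, with its lowest ratio of 2.67 on TIC 896.

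With loess the falls were larger on the log2 scale than the rises, but with median centring the largest rise, that of Tspan12, was at 6.57 and the largest fall, that of Ppbp, at −5.52. Platelet, B cell and red cell genes were among the largest falls. The 12 largest falls under the same conditions ranged from −7.85 to −6.55. Ppbp, which encodes a chemokine precursor stored in platelets, lay at 488, 875.5 and 1343 units in Cy5 and at 25641, 28250 and 29642 units in Cy3. It fell by 7.85 ± 0.11 (SE, n = 8; limma adjusted p = 1.25e-14). Gp9, part of the complex by which platelets bind von Willebrand factor, fell by 7.63 ± 0.11. Ms4a1, the gene of the B cell antigen CD20, had 131.5, 225 and 392.5 units in Cy5 against 6462, 6735 and 7052 in Cy3 and fell by 7.45 ± 0.12. Slc25a37, the mitochondrial iron importer of red cell precursors, fell by 7.21 ± 0.13 from a Cy3 median of 150275 units. Alas2 fell by 4.22 ± 0.11; its Cy3 signals of 234400 to 275048 units lay above all its Cy5 signals.

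Other genes among the 12 largest falls have known roles outside the blood lineages, but their probes were bright in blood. By the rule that picked them, each was well above background in Cy3, the blood channel, on all 8 arrays. Fhl1, a LIM protein of muscle and other tissues, fell by 7.28 ± 0.14. Kcnh6, a potassium channel, fell by 7.02 ± 0.08, Slc22a8, an organic anion transporter, by 6.90 ± 0.10, Slc38a5, an amino acid transporter, by 6.87 ± 0.14, Aqp2, a water channel known from the kidney, by 6.79 ± 0.09 and Camk1g, a kinase, by 6.73 ± 0.12. A probe named for the olfactory receptor Olfr1495 fell by 6.67 ± 0.20, from 2745 to 4092 units in Cy3; on the blood arrays its Cy3 signals were higher still, at 6597 to 13992. In Cy5 of the blood arrays, blood of tumour-bearing mice, Fhl1 was at 5528 to 14324 units and Kcnh6 at 9124 to 24770. Aqp2 was at 1468 to 4456 units there and Camk1g at 2097 to 6144. Probe sequences were not aligned here, and these names rest on the accession printed on the array. Rsad2, which encodes the antiviral protein viperin, is the one interferon-stimulated gene of the 12, with 2141, 3363 and 8881 units in Cy5 and 44198, 45720 and 48825 units in Cy3. It fell by 6.55 ± 0.14 (SE, n = 8; limma adjusted p = 3.02e-13).

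**Figure D2:**
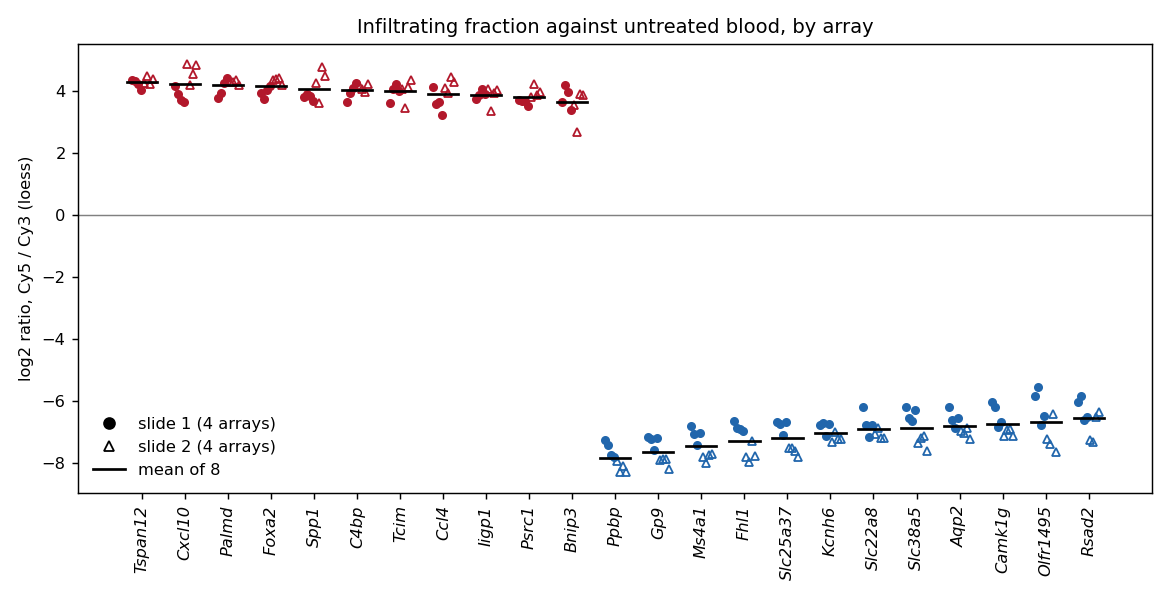
Each point is the log2 ratio of Cy5 over Cy3 on 1 array after loess, for 11 of the 12 largest rises and the 12 largest falls, with the mean of 8 as a bar and the slide as the symbol. All 8 arrays lie on the same side of 0 for each gene because the rule that picked the genes required it. Ratios ran from 4.02 to 4.47 for Tspan12 and from −8.29 to −7.25 for Ppbp.

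Cxcl10 and Rsad2 are both known as interferon targets and stood at opposite ends of the ratios, so their promoters are shown with the motif GAAA, any 2 bases, GAAA, the core that interferon response elements share. Alas2 stands for the erythroid falls with AGATAA, the letters GATA factors bind. Bnip3 stands for the rises of the glycolysis and hypoxia list with ACGTG, the core bound by HIF. The windows run from 250 bases before to 50 bases after the RefSeq start on GRCm38.p6, printed 5′ to 3′ on the gene's own strand, with matches on either strand in capitals. Cxcl10 lies at chr5:92348840-92349139 on the minus strand and its match begins 213 bases before the start. Rsad2 lies at chr12:26456403-26456702, minus strand, with a match 120 bases before the start. Alas2 lies at chrX:150547167-150547466, plus strand, with a match 86 bases before the start. Bnip3 lies at chr7:138909457-138909756, minus strand, where 2 matches overlap as CACGTG from 108 bases before the start.
Cxcl10: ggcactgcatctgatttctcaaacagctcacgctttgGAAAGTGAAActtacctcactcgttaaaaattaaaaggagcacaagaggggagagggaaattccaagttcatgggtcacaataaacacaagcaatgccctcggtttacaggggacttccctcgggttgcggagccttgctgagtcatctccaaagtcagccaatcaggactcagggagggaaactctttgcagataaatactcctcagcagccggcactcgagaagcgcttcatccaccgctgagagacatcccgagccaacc
Rsad2: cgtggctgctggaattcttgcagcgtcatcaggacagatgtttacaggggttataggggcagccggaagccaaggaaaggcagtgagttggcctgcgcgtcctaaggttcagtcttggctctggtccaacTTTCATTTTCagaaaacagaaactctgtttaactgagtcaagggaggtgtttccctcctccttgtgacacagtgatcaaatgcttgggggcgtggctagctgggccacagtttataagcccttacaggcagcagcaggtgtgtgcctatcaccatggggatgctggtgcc
Alas2: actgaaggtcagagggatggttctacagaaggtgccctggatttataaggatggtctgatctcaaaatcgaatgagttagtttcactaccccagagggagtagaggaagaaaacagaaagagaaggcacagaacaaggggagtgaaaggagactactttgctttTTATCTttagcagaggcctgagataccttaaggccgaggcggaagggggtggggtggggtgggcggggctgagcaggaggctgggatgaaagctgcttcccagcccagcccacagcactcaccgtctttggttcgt
Bnip3: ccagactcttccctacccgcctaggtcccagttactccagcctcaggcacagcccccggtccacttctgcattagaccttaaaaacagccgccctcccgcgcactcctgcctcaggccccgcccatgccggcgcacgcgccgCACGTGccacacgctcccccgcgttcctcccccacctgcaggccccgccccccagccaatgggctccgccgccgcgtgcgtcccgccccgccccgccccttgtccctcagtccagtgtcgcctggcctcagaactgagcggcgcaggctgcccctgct

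The interferon motif was found in 3.44% of 32851 promoter windows of this length, and 3.99% of 27025 genes had it in at least 1 window. Of the 28 interferon-stimulated genes tested, 22 matched a promoter entry and 14 of these (63.6%) held it. AGATAA was in 11.2% of windows and 12.7% of genes, against 9 of the 22 erythroid genes with an entry (40.9%; 35 tested). ACGTG was in 19.6% of windows and 21.8% of genes, against 20 of the 29 glycolysis and hypoxia genes with an entry (69.0%; 30 tested). Cxcl10 and Rsad2 both held the first motif while their ratios were 4.24 and −6.55. A match is a description of the letters and not a binding site.

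Gene lists are described from here on by the number of members called and by the median log2 ratio, beside 10.7% of all genes that rose, 12.4% that fell and a median of 0.05. These shares are not matched for brightness. Of the 10 bins by intensity, the 3 dimmest held 0 rises and the brightest held 249 rises and 270 falls among 1231 genes. A list of bright genes can therefore exceed 10.7% through brightness alone. Tumour and liver genes come first. Of 32 tested genes of hepatoma and plasma proteins, 10 rose, 1 fell and 21 were not called. The median was 0.60. In Cy3, 11 of the 32 were higher than on the blood arrays and 1 was lower, which bears on their ratios as set out with the reference below. Afp rose by 2.98 ± 0.08 (SE, n = 8; limma adjusted p = 1.8e-12). Fetub, a plasma protease inhibitor of liver, rose by 2.14 ± 0.09, and Ambp, the precursor of alpha-1-microglobulin, by 1.75 ± 0.07. Alb, which encodes albumin, rose by 1.15 ± 0.10, and lost its call when ratios were scaled between arrays (0.90) or on the first slide alone (0.96). Among 20 liver transcription factor genes 5 rose, among them Foxa2 and Tbx3 (3.20 ± 0.07), 1 fell and 14 were not called.

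Ambp differed strongly between samples in brightness but not in ratio. Its Cy5 signal was 896, 8918 and 50949 units at the lowest, median and highest array, and its Cy3 signal 75, 262.5 and 1008 units. Log2 ratios stayed between 1.48 and 2.20. Cy3 is labelled as the same untreated blood on all of these arrays.

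Monocyte and macrophage genes were called higher in 13 of 29, lower in 1 and not called in 15; the median was 0.72. Large rises were those of Mrc1, the mannose receptor of tissue macrophages (3.21 ± 0.13), and Maf, a transcription factor (2.96 ± 0.05). Mrc1 lay at 1076, 3445 and 12444 units in Cy5, while its Cy3 signals of up to 35 units were well above background on 3 of 8 arrays. Complement genes of macrophages rose as well, C1qa by 1.04, C1qb by 1.13 and C1qc by 1.33, as did Trem2, a lipid-sensing receptor (1.60), Gpnmb (2.05) and Axl, a receptor for dying cells (2.16). Csf1r was not called, at −0.11 ± 0.05, and reached 2.18 under median and 1.42 under spike-in centring. Lyz2, the lysozyme of monocytes and neutrophils, was the 1 called fall, at −1.63, and stood at 0.73 with median centring.

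Lysosome genes had 5 rises, 1 fall and 24 members not called of 30 tested, and a median of 0.12. Ctsl, a cathepsin protease, rose by 3.64 ± 0.07. Before normalisation its median was 530.2 units in Cy3 and 52953 units in Cy5. Lgmn, an asparaginyl protease, rose by 2.08 ± 0.09 and Ctss, the cathepsin of antigen-presenting cells, by 2.06 ± 0.08. Grn, which encodes progranulin, fell by 2.37 ± 0.09, but was at 0.00 with median centring and at −0.65 and not called when its probes were averaged.

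Neutrophil genes were the myeloid group that fell most often, with 6 falls, 1 rise and 10 members not called of 17 tested and a median of −0.47. S100a8 and S100a9, which form the alarmin calprotectin, both fell by 2.97, with errors of 0.12 and 0.16. S100a9 lay at 8442, 29243 and 71551 units in Cy5 and at 26956, 28094 and 30751 units in Cy3, so that the channels overlapped before normalisation. With median centring these genes were at −0.66 and −0.61 and not called, and 0 of the 6 falls were called lower under all 4 centrings. Fpr1, the formyl peptide receptor, fell by 1.36 ± 0.06 and, at −0.43, lost its call under median centring. The rise was that of Il1r2, a decoy receptor for interleukin 1 (1.05).

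Of 15 dendritic cell genes 3 rose, 1 fell and 11 were not called. Clec10a, a lectin of macrophages and dendritic cells, rose by 2.10 ± 0.10, Ly75, the receptor DEC-205, by 1.42 ± 0.08 and Itgax, which encodes CD11c, by 1.39. Zbtb46, a transcription factor of dendritic cells that erythroid precursors also express, fell by 4.11 ± 0.06 and remained called under all 4 centrings. Of 16 mast cell, basophil and eosinophil genes 1 rose, 2 fell and 13 were not called. Siglecf, an eosinophil and macrophage lectin, rose by 1.16 ± 0.09. Hdc, the enzyme that makes histamine, fell by 1.25 ± 0.06 but was at 1.03 and called higher with median centring. Cy3 of Hdc was higher here than on the blood arrays, by 1.48, and with that reference Hdc was at 0.23 and not called. Gata2 fell by 1.25 ± 0.07 and lost its call with median centring (−0.50), without background correction (−0.70) and with the background fitted on all spots (−0.99).

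NK and cytotoxic genes held 8 rises, 0 falls and 14 members not called of 22 tested, with a median of 0.70. Gzmb, a granzyme that enters target cells, was at 13934, 29339 and 55611 units in Cy5 and at 267, 721.5 and 1420 units in Cy3. It rose by 2.26 ± 0.06 (SE, n = 8; limma adjusted p = 8.32e-13), above 0 on each array. Gzmc rose by 1.88 ± 0.14, Il2rb, a chain of the interleukin 2 and 15 receptors, by 1.46 ± 0.05, Tbx21, which encodes T-bet, by 1.43 and Prf1, the pore-forming protein, by 1.12.

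T cell genes were called lower in 9 of 25 and higher in 2, while 14 were not called; the median was −0.33 (1.15 with median centring). Among the falls were genes of naive and central memory cells. Ccr7, the receptor that guides them to lymph nodes, fell by 2.89 ± 0.05 and Lef1, a transcription factor, by 2.12 ± 0.13. Of the 9 falls, 1 was called lower under all 4 centrings, and those of Ccr7 and Lef1 were not. The 2 rises were those of the checkpoint receptors Pdcd1 (1.76) and Ctla4 (1.27), the latter well above background in Cy3 on 2 of 8 arrays only. Cd3e was not called at −0.98 ± 0.09, passed the fold without TIC 890, TIC 891 or TIC 893 (−1.06 at the lowest), and was at 0.23 with median centring. Cd4 was at 0.04 ± 0.04 and was not well above background in Cy3 on any array.

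B cell genes fell almost throughout. Of 21 tested, 19 fell, 0 rose and 2 were not called, 17 of the falls were called under all 4 centrings, and the median was −3.82 (−3.39 to −4.29 over arrays). Beside Ms4a1, Fcmr, the receptor for IgM, fell by 5.90 ± 0.12, Fcrla by 5.85 ± 0.08 and Cd79b, a chain of the B cell receptor, by 5.79 ± 0.11. Cd79b was at 709, 1319 and 1686 units in Cy5 against 8692, 9019 and 9471 in Cy3. The channels did not overlap. On the blood arrays Cd79b also fell, by 1.56, and the fraction lay lower than that blood by 4.22.

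MHC class II genes were called lower in 5 of 9, with 0 rises and 4 not called. H2-Oa, a chain of the regulator H2-O found in B cells, fell by 3.49 ± 0.08 and H2-DMb2 by 2.07 ± 0.07, both under all 4 centrings. H2-Ab1, a classical class II chain, fell by 1.67 ± 0.08 but was at 0.69 with median centring and at −0.93 when its probes were averaged. Its Cy3 was higher here than on the blood arrays, by 1.39. With Cy3 of the blood arrays as reference its ratio was −0.28, without a call. The list's median was −1.35 with loess, 0.89 under median and 0.13 under spike-in centring. Of 15 MHC class I genes 1 rose and 1 fell. Erap1, the peptide-trimming aminopeptidase, rose by 1.48 ± 0.09, and Tap2, a peptide transporter chain, fell by 1.03 ± 0.06, turning to a called rise of 1.01 with median centring. Cy3 of Tap2 was higher here than on the blood arrays, by 1.63, and with that reference Tap2 was at 0.60 and not called.

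Most falls of red cell and platelet genes were called under all 4 centrings. Of 35 erythroid genes 26 fell, 0 rose and 9 were not called. Their median was −4.13, and 22 of the falls were called lower under all 4 centrings. Slc4a1, which encodes the band 3 anion exchanger, fell by 6.50 ± 0.10, and Fech, which inserts iron into haem, by 6.47 ± 0.15. The globin genes Hba-a1 and Hbb-bt fell by 5.94 and 5.11. Their Cy5 signals were nonetheless 29452 to 132607 and 44974 to 146780 units, below Cy3 signals of 532088 to 575238 and 411685 to 471672 units. Of 22 platelet genes 19 fell, 16 of them under all 4 centrings, 0 rose and 3 were not called, and the median was −4.64. Rgs18, a regulator of platelet signalling, fell by 6.50 ± 0.14, and Pf4, platelet factor 4, by 4.58. Before normalisation Pf4 had Cy3 signals of 38804 to 41494 units and Cy5 signals of 5473 to 31454.

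Stromal genes were mixed. Of 28 fibroblast and matrix genes 8 rose, 2 fell and 18 were not called. Dcn, the proteoglycan decorin, rose by 2.31 ± 0.07, Sparc, a matrix glycoprotein, by 1.78 ± 0.12, Serpinh1, a collagen chaperone, by 1.67 ± 0.09 and Col1a1 by 1.56 ± 0.10. Averaged over its probes, Col1a1 was at 0.84 and not called. Of 15 endothelial genes 1 rose, Ecscr (1.21 ± 0.06; 0.95 and not called with scaling between arrays), 0 fell and 14 were not called. Pecam1, the adhesion molecule CD31 of endothelium and platelets, was at −0.86 ± 0.04.

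Chemokine ligands formed the list with the highest median, 1.42 with loess (1.33 to 1.62 over arrays) and 3.54 with median centring. Of 29 tested, 19 rose, 1 fell and 9 were not called. Beside Cxcl10 and Ccl4 these included Cx3cl1, the membrane-bound chemokine fractalkine (2.84 ± 0.09), the neutrophil attractants Cxcl3 (2.82) and Cxcl2 (2.44), Cxcl1, whose ratio is only a bound, and the monocyte attractants Ccl8 (2.64), Ccl12 (2.43) and Ccl2 (2.21). Ccl19, which binds CCR7, was the fall, at −1.32, and, at −0.01, lost its call under median centring. Of 18 genes of their receptors 3 rose, 3 fell and 12 were not called. Ccrl2 (2.43), Cxcr6 (2.36) and Cxcr3 (1.02), the receptor for Cxcl9 and Cxcl10, rose, and Cxcr3 lost its call without TIC 889 (0.96) or TIC 896 (0.98). Cxcr5, the B cell follicle receptor, fell by 4.90 ± 0.11 and Ccr6 by 3.98 ± 0.06, both under all 4 centrings, and Ccr7 as given above. Ccr2, the monocyte receptor for Ccl2, was not called at −0.16.

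Of 30 cytokine genes 8 rose, 1 fell and 21 were not called. Spp1 led, followed by Kitl, the ligand of KIT (3.05 ± 0.06), Areg, an EGF receptor ligand (2.20), Vegfc (2.05), Il33 (1.67), Il1rn, the interleukin 1 receptor antagonist (1.54), and Il4 (1.07; 0.97 and no call without TIC 897). Il1a, dark in Cy3 on all 8 arrays, was at least 2.08-fold higher with loess. Il16 fell by 2.41 ± 0.10 and was at −0.41 with median centring. Il1b (0.98), Il6 (0.89) and Tnf (0.08) were not called, though Il1b passed the fold without TIC 891, TIC 893 or TIC 894 (1.09 at the highest). Matrix proteases and inhibitors had 9 rises, 1 fall and 18 members not called of 28. Adamdec1, a protease of macrophages, rose by 3.52 ± 0.10, Mmp14, a membrane-bound collagenase, by 3.29 ± 0.07 and Mmp13, collagenase 3, by 3.06 ± 0.07. Mmp13 lay at 7300, 23574 and 87281 units in Cy5 and at 120, 379.5 and 703 units in Cy3.

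Proliferation genes rose more often than they fell. DNA replication genes held 10 rises, 1 fall and 22 members not called of 33, with a median of 0.60, and mitosis genes 12 rises, 2 falls and 16 not called of 30, with a median of 0.91. Tyms, which makes thymidylate, rose by 1.98 ± 0.06 and Mcm6, a helicase subunit, by 1.79 ± 0.06. Cenpe, a kinetochore motor, rose by 2.49 ± 0.05. The falls were those of Lig1, a DNA ligase (−2.66 ± 0.09), Ube2c, a ubiquitin-conjugating enzyme of mitosis (−3.20 ± 0.12), and Nusap1, a spindle protein (−3.87 ± 0.08). Of these Nusap1 alone was called lower under all 4 centrings, and Lig1 was also lower in Cy3 here than on the blood arrays, by 2.26.

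Glycolysis and hypoxia genes were called higher in 15 of 30 and lower in 5, while 10 were not called; the median was 0.83. After Bnip3 came Pgam1, a glycolytic mutase, with 42361, 102864 and 162064 units in Cy5 against 894, 1220 and 1756 in Cy3. It rose by 3.26 ± 0.05 (SE, n = 8; limma adjusted p = 1.39e-14), the channels being far apart on each array. Egln3, an oxygen-sensing hydroxylase, rose by 2.66 ± 0.08, Ldha by 2.61, Pgk1 by 2.55, Hk2 by 2.21 and the glucose transporter Slc2a1 by 2.19. Pdk1 (−2.0), Mxi1 (−1.94), Slc2a3 (−1.46), Car9 (−1.04) and Pfkfb4 (−1.02) fell, 0 of them under all 4 centrings. Cy3 of Pdk1 was higher here than on the blood arrays, by 1.75. With Cy3 of the blood arrays as reference Pdk1 was at −0.25 and not called, while the other falls kept their calls. Car9 lost its call without TIC 896 (−0.98), and Pfkfb4 without TIC 890, TIC 891 or TIC 893 (−0.95 at the weakest). Among 31 genes of cholesterol and fatty acid synthesis 4 rose, 2 fell and 25 were not called, with Scd2, a desaturase, at 3.14 ± 0.09 and Msmo1 at 1.77 ± 0.05.

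Interferon-stimulated genes split. Of 28 tested, 5 rose, 7 fell and 16 were not called, around a median of 0.12. The rises held 3 guanylate-binding proteins, Gbp3 (2.35 ± 0.12), Gbp2 (2.09) and Gbp5 (1.31), together with Usp18 (1.41) and Ifih1 (1.02; under the fold without TIC 889, TIC 890 or TIC 891, at 0.97 the lowest). The falls held Rsad2, Irf7, the master factor of interferon induction (−2.31 ± 0.07), Isg15 (−2.20), Ifit1 (−1.97), Oas3 (−1.63), Ifit3 (−1.39) and Cmpk2 (−1.12). Among these falls, Rsad2 alone was called lower under all 4 centrings, and Irf7 was at −0.32 with median centring. Ifit3 differed in Cy3 from the blood arrays by 0.86, and with Cy3 of those arrays it was at −0.54 and not called.

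Immediate-early and heat-shock genes had a median of 0.94, with 18 rises, 2 falls and 17 members not called of 37. Fos, part of the AP-1 factor, rose by 3.55 ± 0.09, Egr2 by 3.23 ± 0.09, Dusp1, a phosphatase of MAP kinases, by 2.73 ± 0.12, Tnfaip3 by 2.56 and the chaperone gene Hspa5 by 2.51. Klf2 (−2.32) and Jund (−1.06) fell, but were at 0.03 and 1.30 with median centring, the latter as a called rise. The call of Jund was also lost without TIC 893 (−0.97).

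Genes of basic cell functions lay near the centre with loess and above it with median centring. Cytosolic ribosomal protein genes had a median of −0.22 with loess and of 2.13 with median centring, with 3 rises, 10 falls and 68 members not called of 81. Rps25 (−1.64 ± 0.06) and Rpl4 (−1.58 ± 0.06) fell most, and reached 0.73 and 0.76, without a call, under median centring. Their Cy3 was higher here than on the blood arrays, by 1.64 and 1.35. With Cy3 of the blood arrays as reference their ratios were 0.006 and −0.23, without a call. Proteasome genes held 8 rises and 3 falls of 37, with Psma1 at 1.86 ± 0.08, Psmd12 at 1.68 ± 0.05 and Psmd4 at −1.89 ± 0.04 (0.45, without a call, under median centring). Of 79 respiratory chain and ATP synthase genes 10 rose and 8 fell. Atp5g3, a subunit of the ATP synthase ring, rose by 2.17 ± 0.06, Ndufa3 fell by 1.79 ± 0.07 (0.51, without a call, under median centring) and Cox6b2, a cytochrome oxidase subunit known from testis, fell by 3.77 ± 0.07, the latter under all 4 centrings.

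**Figure D3:**
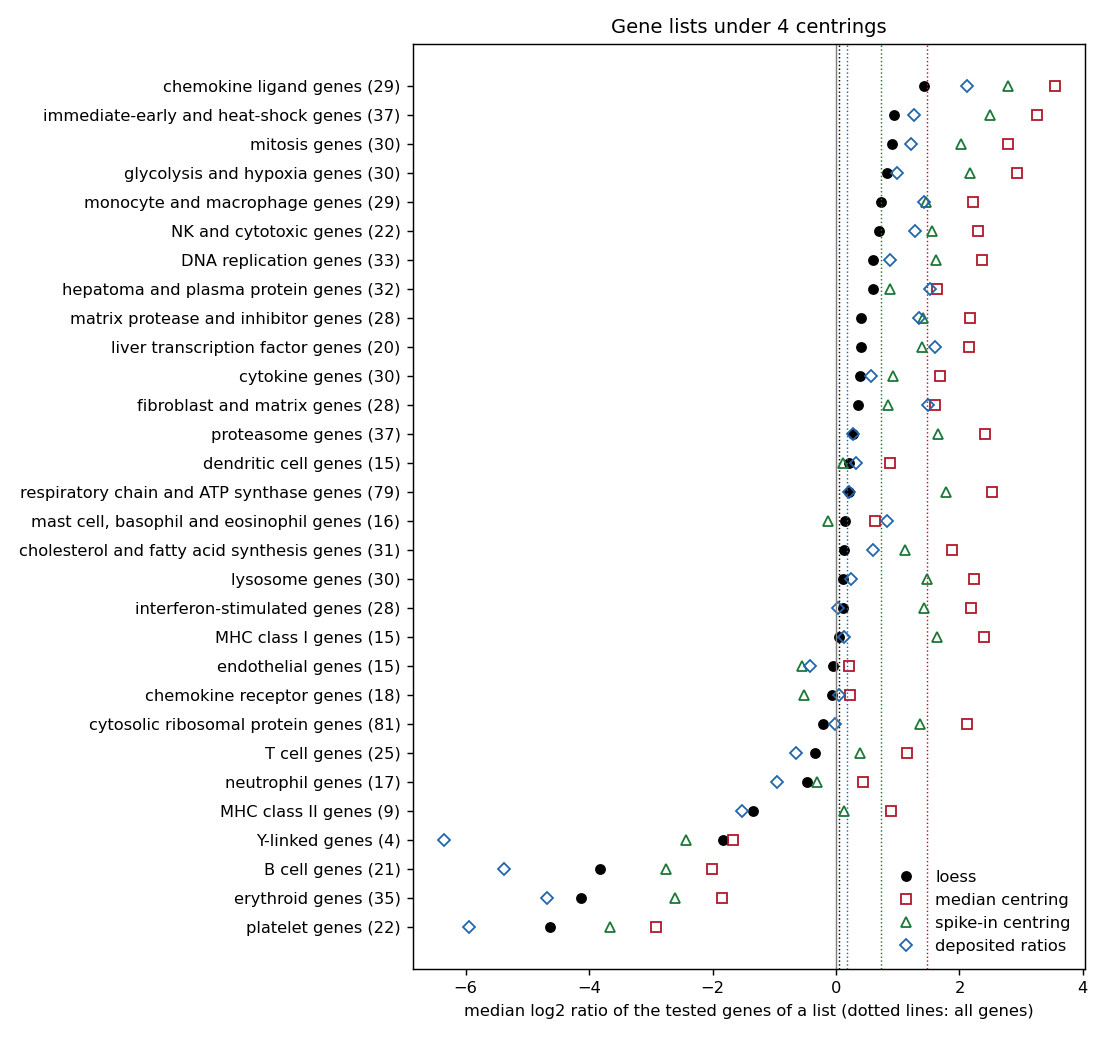
Medians of the log2 ratio over the tested members of each of 30 gene lists are plotted under loess, median centring, spike-in centring and the deposited ratios, with the number tested in brackets and dotted lines at the median of all genes. Platelet, erythroid, B cell and Y-linked genes lie below 0 under all 4, chemokine ligands at 1.42 or above, and ribosomal protein genes move from −0.22 to 2.13.

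The 6 brightest genes whose called fall became a called rise with median centring were all ribosomal protein genes, and 5 are given here; of all 187 such genes 8 were ribosomal protein genes. Rps4x lay at 113674, 292467 and 393208 units in Cy5 and at 53968, 75485 and 96667 units in Cy3. Its log2 ratio was −1.16 ± 0.06 with loess, 0.46 with spike-in centring and 1.21 with median centring, and every Cy5 value exceeded every Cy3 value before normalisation. Rps14 moved from −1.16 to 1.21, Rpl11 from −1.06 to 1.30, Rpl23 from −1.02 to 1.35 and Rps29 from −1.22 to 1.15. Cy3 was higher than on the blood arrays by 1.15 for Rps4x, 1.29 for Rps14, 0.82 for Rpl11 and 1.89 for Rpl23. With Cy3 of the blood arrays as reference their ratios were −0.005, 0.13, −0.24 and 0.87, without a call. Rps29 differed in Cy3 by −0.25 and stayed a called fall, at −1.47. The call of Rpl23 was lost without TIC 893 or TIC 898 (both −0.98). Ptprc went the same way, from −0.98 ± 0.13 and no call with loess to 1.36 with median centring, and passed the fold in loess without TIC 889, TIC 890 or TIC 891 (−1.10 at the lowest).

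Some called genes were dark in a channel on all 8 arrays, so that their ratio is only a bound. In Cy3 32 called genes were not well above background, and in Cy5 65. Bounds divide the bright channel's mean by the higher of the dim probe's signal and the lowest signal well above background, and are open to dye bias. They were formed after loess, so they are bounds under loess only. Under the other centrings they would move and were not computed. Zfp503, a zinc finger gene, was at 621 to 3336 units in Cy5 and at 10 to 30 units in Cy3, at least 5.53-fold higher in the fraction. The neutrophil attractant Cxcl1 was at least 4.97-fold higher, Lonrf3 at least 4.15-fold, Slc16a4, a monocarboxylate transporter family gene, at least 3.83-fold, Ugt2b35, a glucuronosyltransferase, at least 3.66-fold and Pbk, a mitotic kinase, at least 3.62-fold. On the dark Cy5 side, Epb42, a red cell membrane protein gene, was at 4.5 to 14 units against 483 to 522 units in Cy3, at least 28.3-fold lower. Hbb-bh1, an embryonic globin gene, was at least 12.1-fold lower, Olfr693 at least 15.0-fold, Eya4 at least 11.9-fold and Myct1 at least 9.27-fold.

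Samples of the fraction differed most from each other in a set of genes that followed a common order. Ppp1r14c, an inhibitor of protein phosphatase 1, had log2 ratios of −4.11 to −0.48, Creb3l3, a liver transcription factor, of −3.65 to −0.18 and Acsf2, an acyl-CoA synthetase, of −2.51 to −0.05. Olfr1153 ran from −2.78 to −0.16, Kcna7, a potassium channel, from −2.21 to 0.22 and Eml6 from −3.10 to −0.44. In each of these 6 genes the 2 highest arrays were TIC 889 and TIC 890. Kcna7 lost its call without TIC 891 (−0.94), TIC 893 (−0.93) or TIC 896 (−0.95). A further pair followed other orders. Chil3, a chitinase-like protein of macrophages, ran from −0.60 to 2.19 with TIC 897 and TIC 898 highest, and was not called at 0.37 ± 0.27. Klrc2, an NK cell receptor, ran from 0.80 on TIC 896 to 3.98 on TIC 889 and rose by 2.34 ± 0.26.

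Cy3 differed between the sets of arrays although its label, untreated blood, is the same on all 16. Cy3 levels correlated at 0.986 to 0.997 within the 8 arrays of the fraction, at 0.984 to 0.997 within the 8 blood arrays and at 0.914 to 0.954 between the sets. After quantile normalisation of Cy3 alone, 763 of 12311 genes (6.2%) were called higher and 190 (1.54%) lower in Cy3 on the arrays of the fraction. Since each slide held 1 set of arrays, the set and the slide cannot be told apart; with the slide as a random block 951 genes were called against 953. Scaling to the 75th percentile gave 926 higher and 136 lower genes.

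Igfbp1, which encodes a binding protein for insulin-like growth factors made by liver, was at 6051, 10407 and 15622 units in Cy3 on the arrays of the fraction and at 9 to 20 units on the blood arrays. The Cy3 difference was 7.14 ± 0.13 on the log2 scale (SE, 8 against 8 arrays; limma adjusted p = 2.76e-18), and the sets did not overlap. Igfbp1 was picked for having the largest Cy3 difference, so its p-value and the lack of overlap are not a separate test. Cy3 is labelled as the same untreated blood on all arrays. The SE and p-value therefore measure the spread between arrays, not between untreated mice. Alb was at 4658 to 12194 units in Cy3 against up to 19.5 units (6.65), Rbp4, the retinol carrier of plasma, at 4124 to 8357 against 9 to 20 (6.10), and Krt18, an epithelial keratin, at 2890 to 8954 against 13 to 29 (5.91). Tgm2, a transglutaminase, differed by 5.90, Rhox5, a homeobox gene, by 5.71, Ccl24, an eosinophil attractant, by 5.64 and Ifng, interferon gamma, by 5.36. Afp differed by 3.58, with 2235 to 4883 units against 118.2 to 149.6.

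The Cy3 signal of genes that were dark in Cy3 on the blood arrays was then set beside their Cy5 signal. Of 12311 genes, 1403 were well above background in Cy5 on all 8 arrays and dark in Cy3 on all 8 blood arrays. Among the 33 of these with a Cy5 median over 10000 units, 33 were well above background in Cy3 on all 8 arrays of the fraction and 28 were called higher in Cy3. Among the 305 with a Cy5 median under 100 units, 16 were bright in Cy3 on all 8 and 0 were called. All 1403 genes had been chosen as dark in Cy3 on the blood arrays, so a called Cy3 difference could hardly be negative. In the dimmest class median Cy3 was 19.5 units, beside 12.75 units on the blood arrays over all 1403 genes. At such signals the offset of the background correction leaves little room for a 2-fold call. No conclusion is therefore drawn from the contrast in calls with the brightest class. Cy3 had a median of 2.78% of Cy5 in the brightest class, from 0.381% to 12.5%, so the share was not the same for each gene. The median share was larger in the dimmer classes. It was 3.57% at 1000 to 10000 units, 12.3% at 100 to 1000 and 29.4% under 100. Where Cy3 stays near its dark level its share grows as Cy5 falls, so the larger shares of dim classes say little. In Ifng Cy3 amounted to 17.9% of Cy5 and in Tspan12 to 0.437%. Genes bright in Cy5 were not all brighter in Cy3 here than on the blood arrays. Ctss had a Cy5 median of 169767 units. Its Cy3 was at 3595 to 5657 units here and at 5091 to 7053 on the blood arrays. Ptprc and Alas2, bright in blood, differed by −0.54 and 0.24.

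A brighter Cy3 lowers the ratio of the same gene, and ratios of these genes moved with the source of the reference. With the Cy3 level taken from the blood arrays, an alternative chosen after the data were seen, 1813 genes rose and 1834 fell. This alternative adds each gene's own Cy3 difference to its ratio. The moves given below therefore restate that difference and are not a separate test. Tgm2 went from −0.15 ± 0.06 to 5.76, Ifng from −0.71 ± 0.06 to 4.65 and Fn1, the matrix protein fibronectin, from −0.85 to 3.78. Arg1, the arginase of alternatively activated macrophages, went from 0.74 to 4.97, Apoe, the lipid carrier of macrophages and liver, from 0.39 to 4.02, and the lysosomal tetraspanin gene Cd63 from 0.31 to 5.08. None of these 6 was called with loess, and each was called higher with the blood-array reference, which their Cy3 differences had fixed in advance. Tgm2 and Ifng were picked by their Cy3 difference, and the other genes after their values had been seen. Called rises moved too, Dcn from 2.31 to 6.78, Afp from 2.98 to 6.56, C1qc from 1.33 to 5.40 and Gzmb from 2.26 to 4.30. Of the 763 genes higher in Cy3, 160 rose and 120 fell in the ratio, with a median of −0.09, or 2.13 with median centring.

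**Figure D4:**
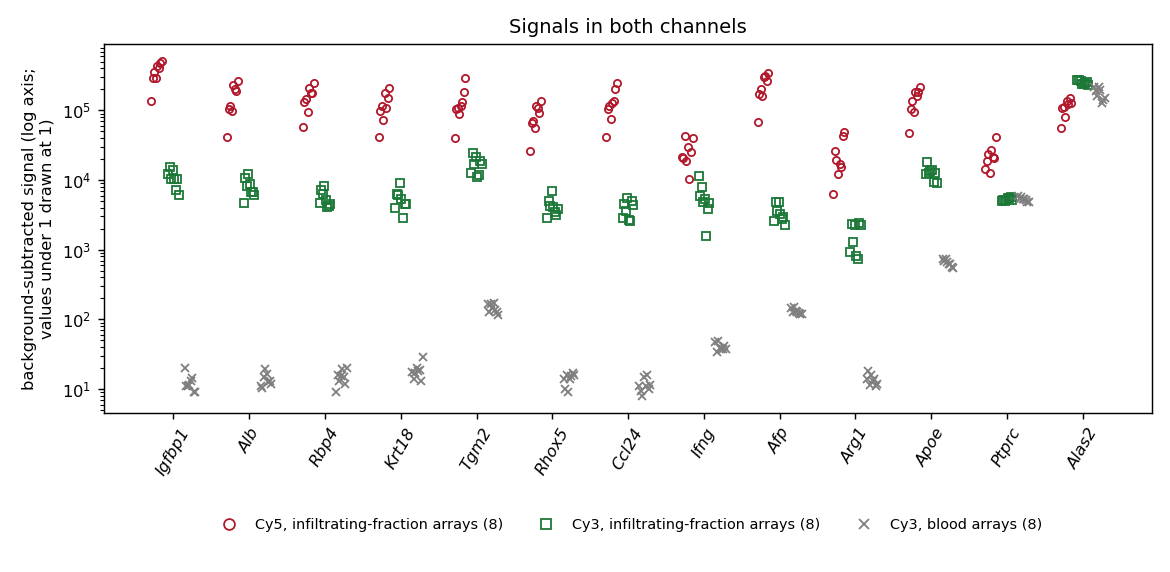
Background-subtracted signals on a log axis are shown for the 8 largest Cy3 differences, for Afp, Arg1 and Apoe, and for the blood-bright genes Ptprc and Alas2, with 1 point per array. Cy3 of Igfbp1 sits at 6051 to 15622 units on the arrays of the fraction and at 9 to 20 on the blood arrays, while Cy3 of Ptprc sits at 4984 to 5754 and 4856 to 5971.

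Sex-linked genes gave a further view of the reference. Both channels are labelled female. Eif2s3y, a Y-linked translation factor gene, was at 282.5, 313.2 and 346 units in Cy3 and at −2.5 to 7 units in Cy5, well above background on 8 and 0 of 8 arrays. It was called lower in the fraction, at least 16.1-fold with loess. Ddx3y, a Y-linked RNA helicase gene, was at 136.5 to 182 units in Cy3 and at −1 to 7.5 in Cy5, at least 6.99-fold lower with loess. Kdm5d, a Y-linked demethylase gene, was at 25.5 to 58 units in Cy3, above background on 8 arrays, and was dark in Cy5, and Uty was dark in both channels. Xist, the RNA that silences an X chromosome in female cells, was at 848, 2369 and 3672 units in Cy5 and at 43.5, 56 and 66 units in Cy3 and rose by 1.99 ± 0.06 (SE, n = 8; limma adjusted p = 2.73e-12). On the blood arrays Cy3 of Eif2s3y was at 254 to 315 units and that of Xist at 3 to 16.5. The Y-linked signal was thus in the reference of both sets of arrays. Xist had more Cy3 units beside the fraction, where median Cy3 over all genes tested was 106 units, against 56.5 on the blood arrays. After quantile normalisation its Cy3 difference was 0.53 on the log2 scale, under the 2-fold rule (0.28 with scaling to the 75th percentile).

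**Figure D5:**
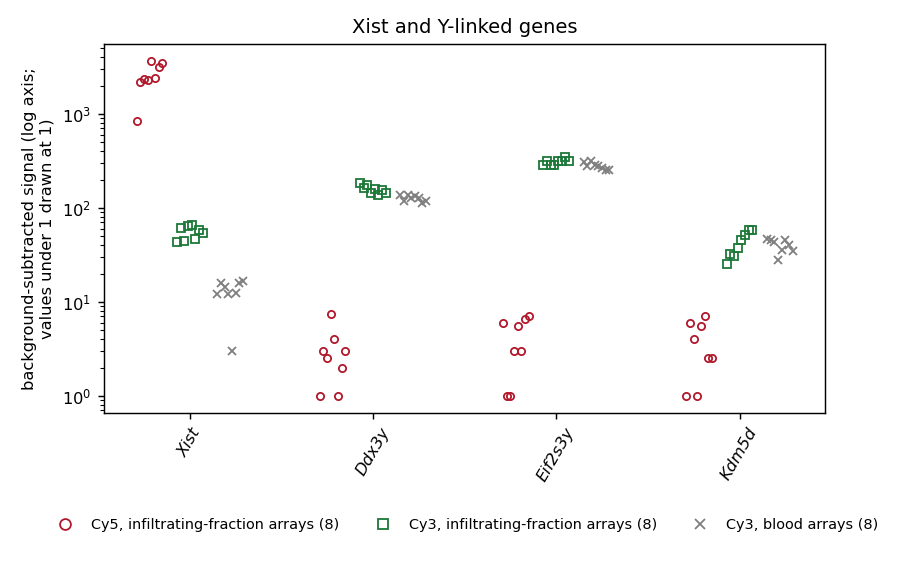
Signals of Xist and 3 Y-linked genes are plotted on a log axis, 1 point per array, for Cy5 and Cy3 of the arrays of the fraction and Cy3 of the blood arrays, with values under 1 drawn at 1. Eif2s3y sits at 254 to 346 units in Cy3 throughout and at or below 7 in Cy5, and Xist at 848 to 3672 units in Cy5.

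The fraction was also set against the blood of tumour-bearing mice. On all 16 arrays 1667 genes (13.5%) were higher and 1722 (14%) lower in the ratio of the fraction than in the ratio of blood; both ratios carry a Cy3 reference that differed between the sets, so a part of a difference can lie in Cy3. Tspan12 differed by 4.32, Cxcl10 by 4.27, Afp by 3.22, Ppbp by −7.59 and Slc25a37 by −7.17. S100a8 was at −2.97 in the fraction and at 1.11 in blood, S100a9 at −2.97 and 0.88, and Hdc at −1.25 and 1.83. Dusp1 rose in both, by 2.73 and 1.32. Ptprc differed by −0.12 and was called in neither.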

How the data were processed

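RNA was measured on Agilent arrays of 2 colours, with Cy5 holding the tumour-infiltrating fraction or blood of tumour-bearing mice and Cy3 untreated blood. The deposited scanner files hold spot intensity per channel with its local background, per the file headers, and Feature Extraction 10.5.1.1 is named there, while the submitters' processing notes give 9.1.3.1. The deposited log10 ratios of the program, Cy5 over Cy3, were turned into log2 as an alternative; the authors' value table held the same log10 ratios.

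Median signals of both channels were background-corrected with limma 3.58.1 (R 4.3.3, with version 1.17.8 of the package for reading files) by normexp with an offset of 50 and normalised by loess within arrays. Spots lying more than 50 units under their local background, 24 over 16 arrays, were left out of the background fit; this was decided after values had been seen and is a departure from the planned fit. Control spots and flagged outlier spots were left out. A probe was tested where Cy5 was well above background on 4 or more arrays of either group, or Cy3 on 8 or more of all 16, and 26508 of 41174 probes were. Of all probes 23374 had 1 gene symbol, taken from the RefSeq accession on the array through the GRCm38.p6 gene table, 17800 had none and 0 had several; the array design is older and probe sequences were not aligned. The probe with the highest mean intensity stood for a gene with several, and 10 of 4049 such genes had probes called in opposite directions. Ratios of 8 arrays were tested against 0 with lmFit and eBayes and adjusted over all tested probes by Benjamini-Hochberg. Units in the text are signals after subtraction of the local background. On all 16 arrays the ratios of both groups were compared, and Cy3 alone after quantile normalisation. The limma fits alone were tried on simulated probe ratios with independent noise. Background correction, loess and centring were not simulated. The number of arrays limits the precision, and no spot was saturated.

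Named were the 12 largest rises and falls that were bright in both channels on 8 arrays, of 1 sign on 8 arrays and called under all 4 centrings, and the 6 largest bounds each way. Also named were the 3 largest called members of each list, the 6 brightest genes whose call turned with the centring, the 8 most variable genes, the 8 largest Cy3 differences and a set of marker genes. Further list members, and Cd63, Fn1, Ctss, Ldha, Arg1 and Apoe beside the Cy3 results, were named after their values had been seen. Some genes picked this way have been omitted. The 30 lists hold 920 genes, of which 877 had a named probe and 830 were tested. The genes, lists and comparisons were chosen with earlier results of these data known. Promoter sequences are RefSeq's for GRCm38.p6. Alternatives changed the centring, background, filter, probe rule, slide, samples and reference level.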

Additional observations from a re-analysis of the deposited data

Results flagged for a closer look

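On single arrays, 13 of 204 sets of 8 values had a highest or lowest array that lay apart from the other 7 by more than Dixon's limit, which chance alone passes in about 1 of 20 sets. TIC 893 was the low array in 8 of them. C1qc was at 0.52 there against 1.26 to 1.84 elsewhere, Cx3cl1 at 2.10 against 2.76 to 3.07, and Krt18 at 0.65 against 1.30 to 1.80. Rhox5 was at 0.62 against 1.10 to 1.51 and Tbx3 at 2.71 against 3.17 to 3.50. Cxcl9 was at 1.91 against 2.30 to 2.61 and Ldha at 2.03 against 2.51 to 2.87. The median log2 ratio of the spike-in spots was 0.11 on TIC 893 against 1.08 to 1.92. TIC 889 was the high array for Cenpe, at 2.78 against 2.38 to 2.57, and for Slc22a8, at −6.20 against −7.19 to −6.77. Vegfc was low on TIC 889, at 1.61 against 1.99 to 2.24, and Prf1 on TIC 896, at 0.37 against 1.05 to 1.38. Rps29 was high on TIC 898, at −0.91 against −1.39 to −1.18.

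Over all genes tested, 25 were called lower in the fraction and higher in blood of tumour-bearing mice and 3 the other way, with a called difference between the groups. Of the genes named here these were Hdc, Isg15, S100a8, Zbtb46 and Ctss. Hdc differed by −3.08, from a ratio of 1.83 in blood to −1.25, and its Cy3 level differed between the sets of arrays by 1.48. Isg15 differed by −3.83, from 1.63 to −2.20, S100a8 by −4.07, from 1.11 to −2.97, and Zbtb46 by −5.34, from 1.22 to −4.11. Ctss differed by 3.15, from −1.09 to 2.06, with a Cy3 difference of −0.87.

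Probes without a gene symbol were outside the gene counts. Of 9127 tested, 387 (4.24%) were called higher and 860 (9.42%) lower in the fraction.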

How the results depend on the processing

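The count of calls for the fraction, 2842, moved most with centring. It was 8166 with median centring (7658 higher, 508 lower), 6806 with spike-in centring (5230 higher) and 6915 with spike-in centring without TIC 893 (4852 higher). With the deposited ratios it was 5764 (3178 higher, 2586 lower), and with the program's spike-in intercept subtracted from them 10329 (9460 higher, 869 lower). Scaling between arrays left 832 rises. Leaving out 1 array gave 2839 to 2905 calls, 1308 to 1343 higher and 1524 to 1562 lower. The difference from blood, 3389 calls, became 8435 with median centring, 7727 with spike-in centring and 7011 with the deposited ratios. The Cy3 difference, 953 calls, was 556 without background correction. With replicate numbers as a block there were 3390 and 954 calls. Deviations of arrays with the same number correlated at −0.05 to 0.11, with 2 of 8 pairs over 0.1 and 3 best with their own number. Fraction and blood lay on different slides and are different tissues, so such correlations cannot exclude that equal numbers are 1 mouse. The labels do not say, and the main fits did not pair samples. Signs turned for these log2 ratios, and the cause was not tested. With median centring: Acsf2 0.44, Ccr2 2.03, Cmpk2 0.54, Csf1r 2.18, Fn1 1.49, Grn 0.0028, H2-Ab1 0.69, Hdc 1.03, Ifit1 0.16, Ifit3 0.76, Ifng 1.63, Isg15 0.017, Jund 1.30, Kcna7 0.98, Klf2 0.028, Lyz2 0.73, Mxi1 0.24, Ndufa3 0.51, Olfr1153 0.14, Pdk1 0.25, Pfkfb4 1.22, Psmd4 0.45, Ptprc 1.36, Rpl11 1.30, Rpl23 1.35, Rpl4 0.76, Rps14 1.21, Rps25 0.72, Rps29 1.15, Rps4x 1.21, Slc2a3 0.82, Tap2 1.01 and Tgm2 2.22. With spike-in centring: Ccr2 1.28, Cd4 −1.05, Csf1r 1.42, Hdc 0.27, Ifit3 0.0076, Jund 0.55, Kcna7 0.23, Pfkfb4 0.47, Rpl11 0.55, Rpl23 0.59, Rpl4 0.002, Rps14 0.45, Rps29 0.39, Rps4x 0.46, Slc2a3 0.066, Tap2 0.26 and Tgm2 1.46. With the program's intercept: Ccr2 1.72, Cmpk2 0.36, Csf1r 1.69, Fn1 1.05, H2-Ab1 0.29, Hdc 0.45, Ifit3 0.27, Ifng 1.18, Jund 1.08, Kcna7 0.49, Lyz2 0.52, Pfkfb4 0.80, Rpl11 1.10, Rpl23 1.16, Rpl4 0.27, Rps14 1.10, Rps25 0.51, Rps29 1.01, Rps4x 1.08, Slc2a3 0.37, Tap2 0.64 and Tgm2 2.02. With Cy3 of the blood arrays: Fn1 3.78, Hdc 0.23, Ifng 4.65, Rpl23 0.87, Rps14 0.13, Rps25 0.0061, Tap2 0.60 and Tgm2 5.76. Signal over background limits ratios of dim genes, since the offset draws them to 0.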
